A study of Homo sapiens with 6 samples.

Results

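The genes described here are 10 readouts of RAS-ERK output: the Sprouty genes SPRY1, SPRY2 and SPRY4, the Sprouty-related genes SPRED1 and SPRED2, the phosphatase genes DUSP4, DUSP5 and DUSP6, and the transcription factor genes ETV4 and ETV5. They were matched by symbol, with no threshold on their values but with earlier results of these data known, and all 10 were found among the 19785 genes of the table. RNA sequencing was done on SET-2 OTX P/R cells (3 libraries), the OTX persister-resistant derivative of the line, and on parental SET-2 cells (3 libraries). SET-2 is an established leukemia line of megakaryoblastic character with an activating JAK2 mutation that the labels class as secondary acute myeloid leukemia. The labels do not spell out OTX, and the series concerns resistance to BET inhibitors, drugs that block bromodomain readers of acetylated histones. Both groups were untreated, exponentially growing cultures in RPMI1640 medium containing 20% fetal bovine serum, so the comparison is between the lines and not between drug and no drug. The labels give a single name to the derivative and do not say whether it is a clone or a pool, so resistance and any other difference between the lines cannot be told apart. The libraries are called biologic replicates, but nothing says how separate the cultures were, and p-values measure the spread between these cultures.

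In the RAS-ERK pathway, receptors and their adaptors load RAS with GTP, RAS activates the RAF, MEK and ERK kinases in turn, and ERK drives transcription of genes that then restrain the same pathway. Sprouty and SPRED proteins act near RAS and RAF, SPRED by bringing the RAS inhibitor neurofibromin to the membrane. DUSP4, DUSP5 and DUSP6 remove phosphate from MAP kinases, and ETV4 and ETV5 are ETS transcription factors of the PEA3 group. In blood cells, cytokine receptors signal through JAK2 to this pathway as well as to STAT proteins.

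The values are StringTie abundances per gene, on a linear scale and per transcript length, which the authors quantile-normalized, so that the libraries share nearly 1 distribution and a value stands for a rank. Sequencing depth is unknown. Fold changes below are differences of log2(value + 1), OTX P/R over parental, which understate the change of low genes, and means are on the linear scale with the SD over 3 libraries. Adjusted p-values come from a limma fit to the 10741 genes with a mean of at least 1, with Benjamini-Hochberg adjustment over all of them, and rose and fell are used at an adjusted p under 0.05. In bulk RNA, fewer cells of a type and less RNA per cell cannot be told apart.

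SPRY1, DUSP5 and ETV4 rose in OTX P/R cells. SPRY2, SPRED1 and SPRED2 did not pass the test, and SPRY4, DUSP4, DUSP6 and ETV5 were too low to be tested. Thus 6 of the 10 genes were tested, of which 3 rose, and none fell in the limma fit (0 at an unadjusted p under 0.05 as well). Of all tested genes 18.6% rose and 17.5% fell, 36.1% together. The median of their log2 fold changes was 0.16, against 0.02 for all tested genes. DUSP5 entered the test through its level in OTX P/R cells, since its parental mean was under 1, so this count does not describe the 10 genes as a set. By library values, 3 genes were higher without overlap and 1 was lower, against 26.8% and 24.9% of all tested genes.

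**Figure D1:**
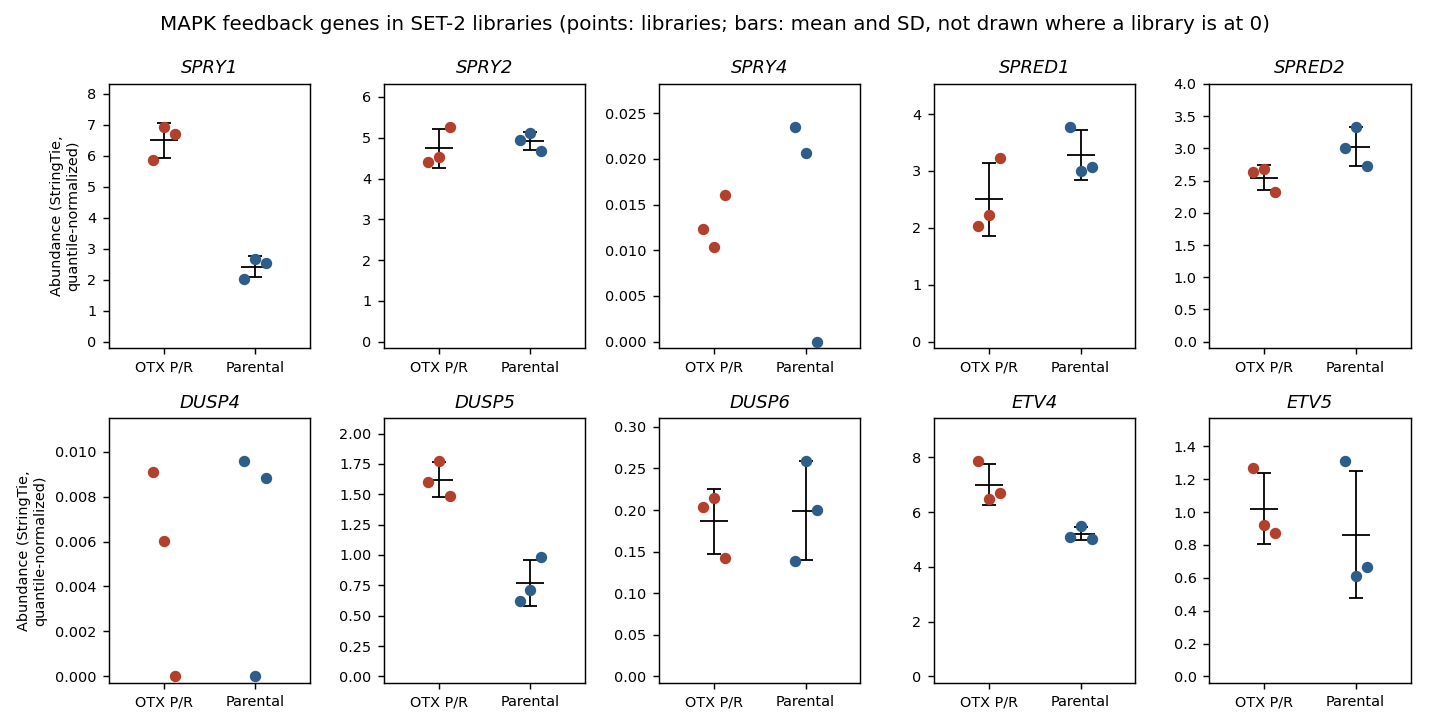
Abundance (StringTie, quantile-normalized, linear scale) of each of the 10 genes in the 3 OTX P/R libraries (red) and the 3 parental libraries (blue), with the mean and SD as bars where no library is at 0. SPRY1, DUSP5 and ETV4 are separated upward and SPRED2 downward, and each panel has its own axis, which ends below 0.1 for SPRY4 and DUSP4.

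SPRY1 (ENSG00000164056.10, chromosome 4), a Sprouty inhibitor of receptor tyrosine kinase signalling to ERK, changed most among the 10 genes. Its abundance was 5.86, 6.93 and 6.68 in the OTX P/R libraries, against 2.04, 2.68 and 2.55 in the parental libraries. Every OTX P/R library lay well above every parental one. The means were 6.49 ± 0.559 in OTX P/R cells and 2.42 ± 0.341 in parental cells (SD, n = 3 each), a ratio of 2.68. The log2 fold change was 1.13 ± 0.10 SE with a 95% interval of 0.89 to 1.38 (limma adjusted p = 0.000449), and 465 of the tested genes (4.33%) had a change at least as large in size. By rank, SPRY1 stood at the 64.4th to 67.0th percentile of the table in OTX P/R libraries, against the 51.8th to 54.6th in parental libraries.

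SPRY2 (ENSG00000136158.10, chromosome 13), the most studied Sprouty protein, which also binds the ubiquitin ligase CBL, stood at 4.40, 4.54 and 5.27 in OTX P/R libraries and at 4.94, 5.12 and 4.69 in parental libraries. These values overlapped. The log2 fold change was -0.05 with an interval of -0.24 to 0.15 (limma adjusted p = 0.681), so a change of the size of that of SPRY1 lies outside the interval. SPRY1 was therefore above SPRY2 in every OTX P/R library and below it in every parental library. The ratio of SPRY1 to SPRY2 within a library was 1.33, 1.53 and 1.27 in OTX P/R cells, against 0.412, 0.524 and 0.544 in parental cells.

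SPRY4 (ENSG00000187678.8, chromosome 5), the third Sprouty gene, was near 0 in both lines, at 0.0123, 0.0103 and 0.0160 in OTX P/R libraries and at 0.0235, 0.0206 and 0 in parental libraries. The sum of the 3 Sprouty genes averaged 11.2 ± 0.873 in OTX P/R cells and 7.35 ± 0.420 in parental cells (SD, n = 3 each), and almost all of it came from SPRY1 and SPRY2. This sum, the other sums and the ratios between genes were chosen after the values were seen.

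The promoters of SPRY1 and SPRY2 are shown because SPRY1 rose and SPRY2 did not pass the test, so the choice rests on their values. A link between these sequences and the expression of the genes was not tested. RefSeq (GRCh38.p14) gives SPRY1 more than one start, and the same is true of SPRY2, and the 250 bases before the most upstream start are printed, 5′ to 3′ on the strand of the gene. The authors' build was hg19, so these coordinates are not those of their files, and the gene-level values do not tell which start was used. Capitals mark the ETS core CCGGAA.
SPRY1, chr4:123396545-123396794, plus strand: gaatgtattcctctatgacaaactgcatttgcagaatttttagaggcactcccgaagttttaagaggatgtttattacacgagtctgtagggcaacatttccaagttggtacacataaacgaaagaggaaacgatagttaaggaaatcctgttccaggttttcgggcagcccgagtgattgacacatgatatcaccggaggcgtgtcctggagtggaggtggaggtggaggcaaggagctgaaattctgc
SPRY2, chr13:80341127-80341376, minus strand: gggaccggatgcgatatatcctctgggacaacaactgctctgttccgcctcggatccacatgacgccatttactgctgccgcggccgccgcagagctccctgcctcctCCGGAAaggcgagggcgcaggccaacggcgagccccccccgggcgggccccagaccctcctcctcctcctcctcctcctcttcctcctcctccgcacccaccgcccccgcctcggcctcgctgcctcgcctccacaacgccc
The SPRY1 window had a GC content of 45.6% with 8 CpG dinucleotides, and the SPRY2 window had 70.4% with 23, against medians of 58.0% and 11 over 35114 RefSeq promoter windows of this length. The ETS core CCGGAA, searched on both strands, occurred once in the SPRY2 window, 142 bases before the start, and not in the SPRY1 window, and 14.5% of all windows held it. The octamers TGAATGAA (1.40% of windows) and TGAATGGA (0.832%), which the repressor Capicua binds, the AP-1 site TGANTCA (6.57%), the CRE TGACGTCA (1.65%), the CArG box (1.16%) and the GATA motif AGATAA (9.17%) had no match in either window. The window at the other SPRY1 start, not printed because it lies in annotated exons, held the ETS core at 67 bases before its start. That window had a GC content of 68.0% with 24 CpG dinucleotides. The windows at the further SPRY2 starts had 62.4% with 13 and 41.2% with 5. Base composition thus varied between starts of the same gene, and the contrast of the printed windows depends on the start taken.

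Neither SPRED gene passed the test, and their OTX P/R means were the lower ones. SPRED1 (ENSG00000166068.12, chromosome 15), the SPRED protein lost in Legius syndrome, stood at 2.04, 2.23 and 3.22 in OTX P/R libraries and at 3.78, 3.00 and 3.06 in parental libraries. OTX P/R replicate 3 lay among the parental values and apart from the other two. The log2 fold change was -0.30 with an interval of -0.66 to 0.06 (limma adjusted p = 0.162), and without that library SPRED1 passed downward, with a log2 fold change of -0.45 (limma adjusted p = 0.0362). SPRED2 (ENSG00000198369.9, chromosome 2) stood at 2.64, 2.68 and 2.33 in OTX P/R libraries and at 3.00, 3.34 and 2.73 in parental libraries. The groups did not overlap, as was so for 51.6% of all tested genes, but the distance was small. The log2 fold change was -0.18 with an interval of -0.39 to 0.02 (limma adjusted p = 0.147). The sum of both SPRED genes was 4.67, 4.91 and 5.55 in OTX P/R libraries, against 6.78, 6.34 and 5.79 in parental libraries.

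Of the 3 phosphatase genes, DUSP5 rose and the other two were low in both lines. DUSP5 (ENSG00000138166.5, chromosome 10) encodes a nuclear phosphatase selective for ERK. It stood at 1.604, 1.77 and 1.48 in OTX P/R libraries and at 0.617, 0.711 and 0.985 in parental libraries. The lowest OTX P/R value was above the highest parental one, and both lines were near the middle of the table, at the 49.2nd to 50.7th percentile in OTX P/R libraries and the 43.7th to 46.3rd in parental libraries. The means were 1.62 ± 0.144 in OTX P/R cells and 0.771 ± 0.191 in parental cells (SD, n = 3 each), a ratio of 2.10, and the log2 fold change was 0.57 ± 0.10 SE (interval 0.32 to 0.82, limma adjusted p = 0.00700).

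DUSP6 (ENSG00000139318.7, chromosome 12), the cytoplasmic ERK phosphatase that is widely read as a marker of ERK activity, was at 0.204, 0.214 and 0.142 in OTX P/R libraries and at 0.139, 0.259 and 0.200 in parental libraries. The groups overlapped, and with no filter on low values the difference was -0.01 on the log2(value + 1) scale (interval -0.13 to 0.10, limma adjusted p = 0.847). At values this low the added 1 compresses differences, so the narrow interval does not bound the ratio between the lines. DUSP4 (ENSG00000120875.8, chromosome 8), a nuclear phosphatase of ERK and JNK, was listed at 0.00909, 0.00603 and 0 in OTX P/R libraries and at 0.00956, 0 and 0.00884 in parental libraries. At such values no difference could be measured.

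ETV4 (ENSG00000175832.12, chromosome 17), an ETS factor of the PEA3 group whose gene is raised by ERK in many cells, was the highest of the 10 genes in every library other than OTX P/R replicate 2, where SPRY1 stood above it. Its values were 7.85, 6.47 and 6.69 in OTX P/R libraries and 5.11, 5.49 and 5.04 in parental libraries, without overlap. The means were 7.01 ± 0.743 in OTX P/R cells and 5.21 ± 0.247 in parental cells (SD, n = 3 each), a ratio of 1.34. The log2 fold change was 0.36 ± 0.08 SE (interval 0.16 to 0.57, limma adjusted p = 0.0181). The call was lost without parental replicate 1 (limma adjusted p = 0.0524) and without parental replicate 3 (limma adjusted p = 0.0580), at log2 fold changes of 0.35 and 0.34.

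ETV5 (ENSG00000244405.7, chromosome 3), its close relative, had a mean just under the filter. It stood at 1.27, 0.922 and 0.871 in OTX P/R libraries and at 1.31, 0.612 and 0.666 in parental libraries. Replicate 1 was the highest of its group in both lines, and the groups overlapped. With no filter the difference was 0.13 on the log2(value + 1) scale, with an interval of -0.29 to 0.55 (limma adjusted p = 0.617), an interval that includes the 0.36 of ETV4. ETV1, the remaining PEA3 gene, was below 0.1 in every library, and the sum of the 3 was 9.12, 7.40 and 7.57 in OTX P/R libraries, against 6.42, 6.12 and 5.71 in parental libraries.

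In OTX P/R cells the means ran from ETV4 through SPRY1, SPRY2, SPRED2, SPRED1, DUSP5, ETV5, DUSP6 and SPRY4 to DUSP4, and the libraries of neighbours in this order overlapped only for ETV4 with SPRY1 and SPRED2 with SPRED1. In parental cells the order was ETV4, SPRY2, SPRED1, SPRED2, SPRY1, ETV5, DUSP5, DUSP6, SPRY4 and DUSP4. There the libraries overlapped for ETV4 with SPRY2, SPRED1 with SPRED2, ETV5 with DUSP5 and SPRY4 with DUSP4. SPRY1 thus ranked 2 of 10 in OTX P/R cells and 5 of 10 in parental cells.

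The chromosomal surroundings of the genes were examined because neighbouring genes shift together in parts of this table. For each gene the 12 tested genes on each side in the GENCODE v29 order were taken. Around ETV4, 21 of 24 neighbours fell, none rose in the limma fit, and their median log2 fold change was -0.79, with a range of -1.99 to -0.02. ETV4 therefore rose among neighbours whose log2 fold changes were all negative, although 3 of them did not pass the test. DHX8, an RNA helicase gene that overlaps ETV4 on the opposite strand, fell to 6.73 ± 0.422 in OTX P/R cells, against 12.6 ± 1.98 in parental cells (SD, n = 3 each). DUSP3, the next tested gene on the other side and itself a phosphatase of ERK and JNK, fell to 5.38 ± 0.106 in OTX P/R cells, against 9.35 ± 0.183 in parental cells. DUSP3 was singled out after its values were seen. Use of strand in counting is not given in the sources used here, so reads of ETV4 and DHX8 in their overlap may not be told apart. The same limit holds for SPRY4, DUSP6 and ETV5, which overlap antisense transcripts. ETV5 also overlaps DGKG, and SPRED2 a transcript inside its intron, on the same strand, where use of strand would not separate the reads.

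SPRY4 lies in surroundings of the same kind on chromosome 5, where 17 of 24 neighbours fell and 4 rose, with a median of -0.55, but its own values were near 0. Around SPRY1, 2 of 24 neighbours rose and 3 fell, with a median of 0.05 and a highest value of 0.47, so SPRY1 was above all of them. Around DUSP5, 4 rose and 7 fell, with a median of 0.00. The neighbour medians of the remaining 6 genes lay between -0.18 for DUSP4 and 0.06 for SPRED1.

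**Figure D2:**
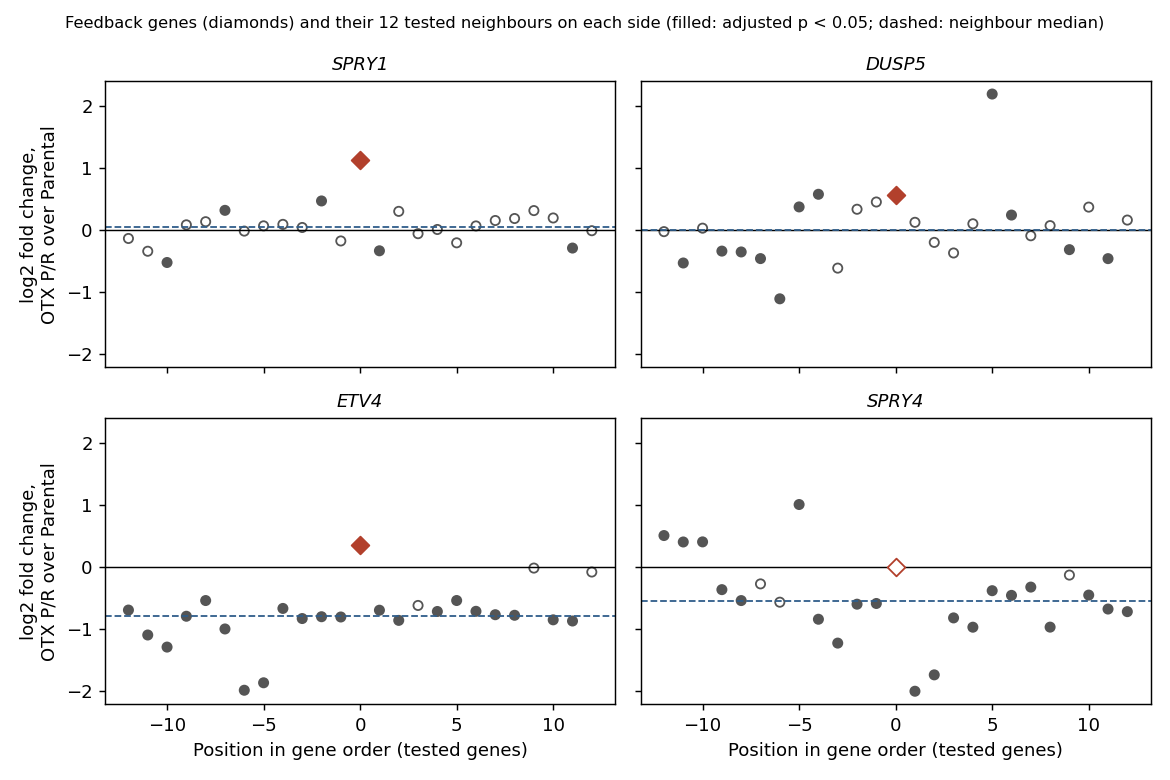
Log2 fold change of (value + 1), OTX P/R over parental, for SPRY1, DUSP5, ETV4 and SPRY4 (diamonds; open where not tested) and the 12 tested genes on each side of each in gene order (circles; filled where the adjusted p was under 0.05), with the neighbour median dashed. ETV4, at 0.36, lies above all 24 of its neighbours, whose median is -0.79, and SPRY1, at 1.13, above neighbours with a median of 0.05.

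SPRY1 was used to look for genes of like pattern. Over the 6 libraries the highest Pearson correlations of log2 values with SPRY1 were those of THSD1 (0.999), ISOC1 (0.998) and SLC25A43 (0.998). THSD1 stood at 3.20, 3.66 and 3.55 in OTX P/R libraries and at 1.41, 1.69 and 1.56 in parental libraries. Such likeness was common, because the libraries form 2 groups: 917 of 10740 other tested genes (8.54%) had a correlation of at least 0.95.

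The counts in the lists of further pathway genes below stand against 18.6% of all tested genes that rose and 17.5% that fell. Of 9 further Sprouty, SPRED and phosphatase genes 5 were tested, of which 3 rose, 1 fell and 1 did not pass, and the median was 0.44 on the log2 scale. DUSP10, which acts on p38 and JNK, was at 9.11, 8.81 and 9.18 in OTX P/R libraries and at 3.54, 4.02 and 3.61 in parental libraries (log2 fold change 1.09 ± 0.06 SE, limma adjusted p = 8.71e-05). DUSP16, a JNK phosphatase, was at 1.87, 1.82 and 1.97 in OTX P/R libraries and at 0.900, 0.800 and 0.771 in parental libraries (0.66 ± 0.07 SE, limma adjusted p = 0.000751). The groups lay far apart for both, but DUSP16, with a parental mean under 1, reached the test only through its level in OTX P/R cells. DUSP7, a cytoplasmic ERK phosphatase like DUSP6, was the most abundant of the family and was at 14.7, 15.6 and 13.9 in OTX P/R libraries, against 11.05, 10.3 and 10.4 in parental libraries (0.44 ± 0.06 SE, limma adjusted p = 0.00264).

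DUSP1, an immediate early phosphatase, went the other way, at 1.39 ± 0.137 in OTX P/R cells and 1.96 ± 0.204 in parental cells, and this call was lost when any single library was left out (limma adjusted p = 0.0522 to 0.0946). DUSP2, a nuclear phosphatase of blood cells, did not pass (log2 fold change 0.09), and SPRY3, SPRED3, DUSP8 and DUSP9 were too low to be tested. The sum over the 10 MAP kinase phosphatases, DUSP4 to DUSP6 included, averaged 37.5 ± 1.68 in OTX P/R cells and 26.2 ± 0.213 in parental cells (SD, n = 3 each). DUSP7 and DUSP10 made up most of that difference, while DUSP4, DUSP5 and DUSP6 together stayed a small share of it.

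**Figure D3:**
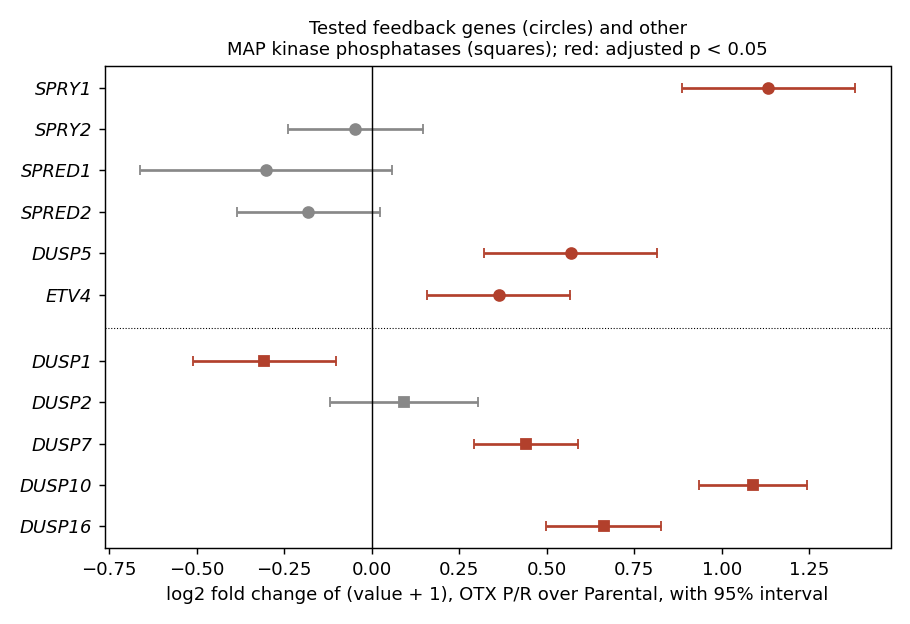
Log2 fold change of (value + 1), OTX P/R over parental, with 95% interval for the 6 tested feedback genes (circles) and 5 further tested MAP kinase phosphatases (squares), red where the adjusted p was under 0.05. SPRY1 (1.13) and DUSP10 (1.09) lie farthest to the right, and DUSP1 (-0.31) is the only red point to the left of 0.

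Other genes that ERK induces were called in both directions, and few of them were tested. Of 15 listed genes 4 were tested, of which MYC rose, PLAUR fell, and IER2 and FOSL1 did not pass. By library values, 3 of the 4 were higher without overlap and 1 was lower, against 26.8% and 24.9% of all tested genes. MYC, the transcription factor, was at 226.2, 264.5 and 260.7 in OTX P/R libraries and at 206.5, 192.8 and 154.3 in parental libraries (log2 fold change 0.45, limma adjusted p = 0.0336). The call was lost without OTX P/R replicate 2 or 3 or parental replicate 2 (limma adjusted p up to 0.0994). PLAUR, the urokinase receptor, was at 4.33, 5.39 and 4.09 in OTX P/R libraries and at 6.75, 6.14 and 8.01 in parental libraries (log2 fold change -0.51, limma adjusted p = 0.0226). It was no longer called without OTX P/R replicate 1 or 3 or parental replicate 1 or 3 (limma adjusted p up to 0.0701). FOSL1, an AP-1 subunit, had a log2 fold change of 0.21 and IER2 of 0.16 (limma adjusted p = 0.0992 and 0.0775). The remaining 11 were under the filter, among them EGR1, at 0.835, 0.897 and 1.04 in OTX P/R libraries and at 0.833, 0.729 and 0.693 in parental libraries. FOS was at 0.129, 0.119 and 0.321 in OTX P/R libraries and at 0.118, 0.193 and 0.227 in parental libraries, and CCND1, the cyclin, was at 0.724, 0.577 and 0.653 in OTX P/R libraries and at 0.844, 0.932 and 0.889 in parental libraries.

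Upstream, the receptors moved in both directions. Of 9 tested genes among 14 receptors and JAK components 3 rose, 4 fell and 2 did not pass. The GM-CSF receptor chain CSF2RA, taken from the higher of its paired rows on the sex chromosomes, rose (log2 fold change 1.12, limma adjusted p = 0.000294), as did SH2B3, an inhibitor of JAK2 signalling (0.57). FGFR1 fell to 0.309 ± 0.131 in OTX P/R cells, against 2.05 ± 0.518 in parental cells, and it reached the test only through its parental level. CSF2RB, the shared beta chain, had a log2 fold change of -1.03. The receptor tyrosine kinase KIT fell by 0.95 on the log2 scale. JAK2, the kinase bound to cytokine receptors, did not pass (-0.27, limma adjusted p = 0.0561), and passed downward without parental replicate 2 (-0.34, limma adjusted p = 0.0286).

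Among adaptors and exchange factors that load RAS, 14 of 17 were tested, of which 4 rose, 3 fell and 7 did not pass. SOS1, the main exchange factor downstream of receptors, was at 6.19, 6.89 and 6.48 in OTX P/R libraries and at 16.1, 16.3 and 14.6 in parental libraries (log2 fold change -1.15 ± 0.07 SE, limma adjusted p = 8.90e-05). Its paralog SOS2 did not pass (0.05), and the ratio of SOS1 to SOS2 was 1.37 ± 0.196 in OTX P/R cells and 3.43 ± 0.584 in parental cells. RASGRP2, a calcium-sensitive exchange factor that acts mainly on RAP1 in platelets, averaged 16.2 ± 0.860 in OTX P/R cells and 7.20 ± 0.290 in parental cells (SD, n = 3 each; 1.07 ± 0.06 SE). RASGRP3 rose (0.73), as did the adaptor SHC1 (0.39), while CBLB, a ubiquitin ligase, fell (-0.58), as did the adaptor GAB3 (-0.41). The RASGRP3 call was lost without any single library other than OTX P/R replicate 1, and the GAB3 call without any parental library (limma adjusted p up to 0.1004 and 0.0633). CBL, which SPRY2 binds, did not pass (-0.03).

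Of 12 tested RAS genes and RAS inhibitors 2 rose, 3 fell and 7 did not pass. RASAL3, a GTPase-activating protein of blood cells, was at 28.6 ± 0.530 in OTX P/R cells and 17.9 ± 0.588 in parental cells (log2 fold change 0.65, limma adjusted p = 0.000201). RRAS rose (0.46) and NRAS fell (-0.34), while HRAS did not pass (-0.04). NF1, which encodes the neurofibromin that SPRED proteins recruit, was at 0.584, 0.406 and 0.546 in OTX P/R libraries and at 2.79, 1.13 and 1.13 in parental libraries. The log2 fold change was -0.77 (limma adjusted p = 0.0490), and NF1 reached the test only through its parental level. Without parental replicate 1, the highest library, the log2 fold change was -0.49 (limma adjusted p = 0.0137). The NF1 call was lost in 9 of 13 alternatives, among them leaving out any library other than parental replicate 1. RASA3 fell by 0.27, a call lost without any single library other than parental replicate 3 (limma adjusted p up to 0.123).

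Of 16 tested kinases and scaffolds of the cascade itself 2 rose, 3 fell and 11 did not pass, near the 36.1% of all tested genes that were called. PEBP1, the RAF kinase inhibitor protein, was at 119.5, 117.3 and 115.5 in OTX P/R libraries and at 86.03, 84.7 and 85.8 in parental libraries (log2 fold change 0.45 ± 0.04 SE, limma adjusted p = 0.000328). MAPK3, which encodes ERK1, was at 36.6, 36.3 and 37.4 in OTX P/R libraries and at 24.5, 24.2 and 33.3 in parental libraries (0.43, limma adjusted p = 0.0410), and its call was lost without any single library other than parental replicate 3 (limma adjusted p up to 0.110). MAP2K1, which encodes MEK1, fell by 0.22 on the log2 scale, and ARAF, a RAF kinase, by 0.17. These falls were small and sensitive to single libraries: MAP2K1 was lost without OTX P/R replicate 1 or 2 or parental replicate 1 (limma adjusted p up to 0.0781), and ARAF was lost when any single library was left out (up to 0.122). BRAF (0.42) did not pass, and ran from 0.23 to 0.58 with single libraries left out.

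Of 9 tested factors that carry ERK signals to transcription 4 rose, 2 fell and 3 did not pass. ETS1, an ETS factor phosphorylated by ERK, averaged 17.7 ± 1.88 in OTX P/R cells and 8.79 ± 1.42 in parental cells (SD, n = 3 each; log2 fold change 0.94 ± 0.12 SE, limma adjusted p = 0.00226). ELK3, a ternary complex factor, rose (0.89), and so did its partner SRF (0.57). ETS2 fell by 0.33 on the log2 scale, and ELK4 by 0.26, a call lost when any single library was left out (limma adjusted p up to 0.124). CIC, which encodes Capicua, the repressor of ETV4, ETV5 and several Sprouty and DUSP genes that ERK relieves, was at 32.1, 43.8 and 29.4 in OTX P/R libraries and at 25.4, 34.4 and 23.7 in parental libraries. Replicate 2 was high in both lines, and CIC did not pass (0.32, limma adjusted p = 0.247), with 0.15 when OTX P/R replicate 2 was left out.

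**Figure D4:**
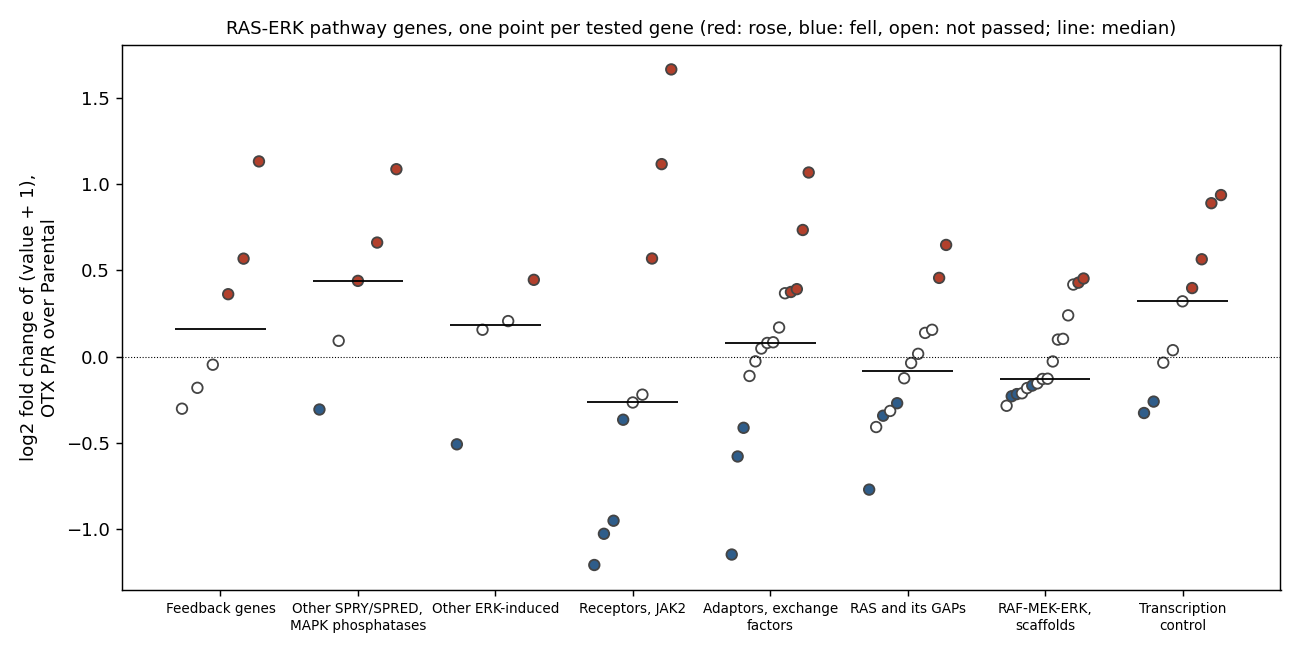
Log2 fold change of (value + 1), OTX P/R over parental, with 1 point per tested gene in 8 groups of RAS-ERK pathway genes, red where a gene rose, blue where it fell and open where it did not pass, with the median of each group as a line. The receptors reach lowest, to -1.21 for FGFR1, and the highest of the RAF-MEK-ERK kinases and scaffolds is PEBP1 at 0.45.

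The libraries carried the markers of the line. Of 9 megakaryoblast markers 8 were tested, PF4 was listed at 0 in every library, and their summed abundance was 576.4 to 586.7 in OTX P/R libraries and 516.0 to 532.2 in parental libraries. The sum of 6 T and NK cell markers was 51.3 to 54.8 in OTX P/R libraries and 115.6 to 123.8 in parental libraries, mostly from NKG7 and PRF1. CD3E was below 0.1 in every library, while CD3D averaged 0.593 in OTX P/R cells and 5.24 in parental cells, GZMB 0.205 in OTX P/R cells and 4.50 in parental cells, and CD2 0.105 in OTX P/R cells and 1.44 in parental cells. The sum of 5 stromal and endothelial markers was 16.9 to 18.1 in OTX P/R libraries and 7.38 to 8.65 in parental libraries, mostly from PECAM1. COL1A2 and VWF were below 0.1 in every library, while COL1A1 averaged 1.92 in OTX P/R cells and 0.0732 in parental cells, and CDH5 0.245 in OTX P/R cells and 0.00216 in parental cells. The 4 epithelial markers summed to 13.9 to 16.2 in OTX P/R libraries and 8.93 to 11.7 in parental libraries, mostly from KRT18, with EPCAM below 0.1. The 3 B cell markers summed to 6.45 to 7.19 in OTX P/R libraries and 8.45 to 9.16 in parental libraries, with MS4A1 listed at 0. The 3 monocyte markers summed to 80.9 to 102.6 in OTX P/R libraries and 86.9 to 100.3 in parental libraries, almost all from LYZ. The part of these markers in the changes of the feedback genes was not tested.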

How the data were processed

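RNA was sequenced from 6 untreated cultures, 3 of each line. Reads went through Trim Galore, HISAT2 and StringTie on build hg19, per the submitters' processing notes, which as given here name no versions. The authors deposited 1 signal value per gene and library, a StringTie abundance, of which the unit (FPKM or TPM) is not stated. Sorted values agreed between libraries to within 0.243% for values from 1 upward. The deposited table is thus quantile-normalized and keeps no difference in depth or total RNA, and the depth and its counting error are unknown. Of 19785 genes, 6 with a missing value were left out.

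Values were taken as log2(value + 1), and 10741 genes whose mean reached 1 were fitted in limma 3.58.1 under R 4.3.3 (lmFit, then eBayes with trend, p-values from both sides, Benjamini-Hochberg over all genes). The code was tested on simulated data. For 3 libraries against 3, the smallest two-sided p of an exact permutation test is 0.1, so no such p is given. Of rows that share a symbol, that with the higher mean was used. GENCODE v29 (GRCh38) placed 19528 genes on chromosomes for gene order only, and RefSeq promoter windows (GRCh38.p14) covered 6 of the 10 genes. The text names the 10 genes, at most 3 called genes per direction in each pathway list and the 3 genes most correlated with the one that changed most, and it may give uncalled list genes with their values. Some genes within this rule are not reported here. The genes, lists and rules were chosen with earlier results of these data known. Alternatives changed the pseudocount (0.1 or 5), the minimum mean (none or 5), the variance prior (untrended or robust), centred each library on its median, blocked by replicate number or left out each library. Python 3.11.15, pandas 2.3.3, NumPy 2.4.6 and Matplotlib 3.10.9 were used for tables and plots.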

Additional observations from a re-analysis of the deposited data

How the results depend on the processing

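In the 13 alternatives that tested them, SPRY1 was called higher at a limma adjusted p of at most 0.00327 and DUSP5 at no more than 0.0332. With a minimum mean of 5 neither was tested. ETV4 was tested and called there (limma adjusted p = 0.0183), but its call did not hold in every alternative. With single libraries left out its log2 fold change ran from 0.29 to 0.41, and its call was lost without parental replicate 1 or 3. SPRED1 ran from -0.45 to -0.21 and passed only without OTX P/R replicate 3. Correlations of deviations between same-numbered libraries were -0.0647 to -0.000294, so the replicate numbers are not treated as pairs. With the replicate number as a block, ETV4 stayed at 0.36 and was not called (limma adjusted p = 0.0535), and CIC was called at 0.32 (0.0167). Under the block, 0 of the other phosphatase genes fell, 0 of the other ERK-induced genes rose and 0 fell, 2 adaptors rose, 1 RAS or RAS inhibitor gene fell, 1 kinase gene rose and 0 fell, and 1 transcription factor fell. With no filter, 0 ERK-induced genes rose and 3 fell, 1 kinase gene rose and 1 transcription factor fell. With a minimum mean of 5, 1 of the 10 genes rose, because fewer were tested, 0 of the other phosphatase genes fell and 1 transcription factor fell, as 1 did under the robust prior. With single libraries left out, 2 to 3 of the 10 genes rose and 0 to 1 fell, 0 of the other phosphatase genes fell, 0 to 1 ERK-induced genes rose and 0 to 1 fell, 2 to 3 adaptors rose, 1 to 3 RAS or RAS inhibitor genes fell, 1 to 2 kinase genes rose and 0 to 2 fell, and 1 transcription factor fell. Uncalled genes near 0 changed sign: with single libraries left out SOS2 ran from -0.0026 (without parental replicate 2; -0.0022 without OTX P/R replicate 3) to 0.13, and CBL from -0.082 to 0.055 (without parental replicate 1; 0.01 without OTX P/R replicate 1). Apart from fewer genes tested, the cause of these changes was not tested. Over all genes, 1439 to 2517 rose and 1351 to 2319 fell in the alternatives that kept all libraries.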
